A study of Homo sapiens with 6 samples.

Results

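The genes described here build, modify, bind and cut the extracellular matrix: collagen and laminin chains, the enzymes that hydroxylate and crosslink collagen, integrins, metalloproteases of the ADAM and MMP families, and the TIMP and serpin inhibitors. Members were taken from the table of counts by a list of gene symbols drawn up with earlier results of these data known. The list covered COL, LAMA, LAMB, LAMC and THBS genes, integrin subunits, and ADAM, MMP, TIMP and SERPIN genes. It also held LOXL, P4H and PLOD enzymes, and SPARC, THY1 and PDGFRB. This gave 40 of the table's 5117 genes, of which 10 encode matrix proteins, 6 collagen-modifying enzymes, 9 receptors and surface proteins, 11 proteases or protease-like proteins and 3 inhibitors or serpins. The last one, MMP24OS, was matched by name only. GENCODE release 29 holds 211 protein-coding genes with such symbols, and those without a row, SPARC and all thrombospondins among them, were not analysed here.

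RNA was sequenced from HMC3, an established human microglial cell line labelled wild type and grown in MEM with serum. In one group of 3 libraries the cells had received C1s-CM, and in the other 3, titled FLAG and here called control CM, they had received CM lacking C1s. C1s is a complement protease that cleaves C4 and C2. Mesenchymal glioblastoma is the disease named in the title. The labels do not spell out CM, its source, the dose or the time of treatment. Both groups share the cell line, the culture medium and the wild-type genotype.

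Fibrillar collagens are assembled in the endoplasmic reticulum, where prolyl 4-hydroxylase stabilises the triple helix and lysyl hydroxylases prepare the sites at which lysyl oxidases later crosslink the secreted fibrils. Laminins and collagens of types IV and XVIII belong to basement membranes. Integrins are pairs of an alpha and a beta subunit that bind these proteins, ADAM proteases shed surface proteins, MMPs cut matrix, and TIMPs and serpins inhibit proteases. In the brain, matrix of this kind is concentrated around vessels and is remodelled by microglia and in glioblastoma.

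The deposited counts summed to 12730766 to 14961744 per library over the genes of the table, which is a part of each library and not its depth. The table holds genes that had passed the authors' own threshold (largest adjusted p 0.05). In edgeR's quasi-likelihood test 99.4% of all genes tested therefore passed adjusted p 0.05, 50.9% higher and 48.5% lower in C1s-CM, so a call on a member is no independent evidence of a change. None of 12 microglial and macrophage markers had a row, nor had the endothelial and astrocyte markers looked for, so the labelled cell type could not be checked. Of 10 fibroblast and pericyte markers 3 had a row (THY1, PDGFRB and COL1A1), with a summed level of 5010 to 5140 CPM (counts scaled to 1e6 per library) in C1s-CM and 4833 to 4931 CPM in control CM. The other 7 had none. All libraries are labelled as the HMC3 line, and whether any other cells were present was not tested. In bulk RNA fewer cells of a type and less RNA per cell cannot be told apart. Whether each library stands for a culture of its own is not in the labels. The p-values then describe only how far these libraries spread, and that spread may be technical.

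The group was divided. With TMM scaling 22 of the 40 members were called higher in C1s-CM (55.0%), 17 lower (42.5%) and 1, COL1A1, in neither direction, and the median log2 fold change was 0.09 (0.08 over the whole table). The groups of 3 libraries did not overlap for 39 of 40 members, and for 97.2% of all genes. ITGAV, 4 further integrin genes and ADAM9 fell by between 27.0% and 41.8%. Among members above 100 CPM in control CM the largest rise, that of ADAM15, was 28.5%. No member differed 2-fold, as did 0.547% of all genes.

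**Figure D1:**
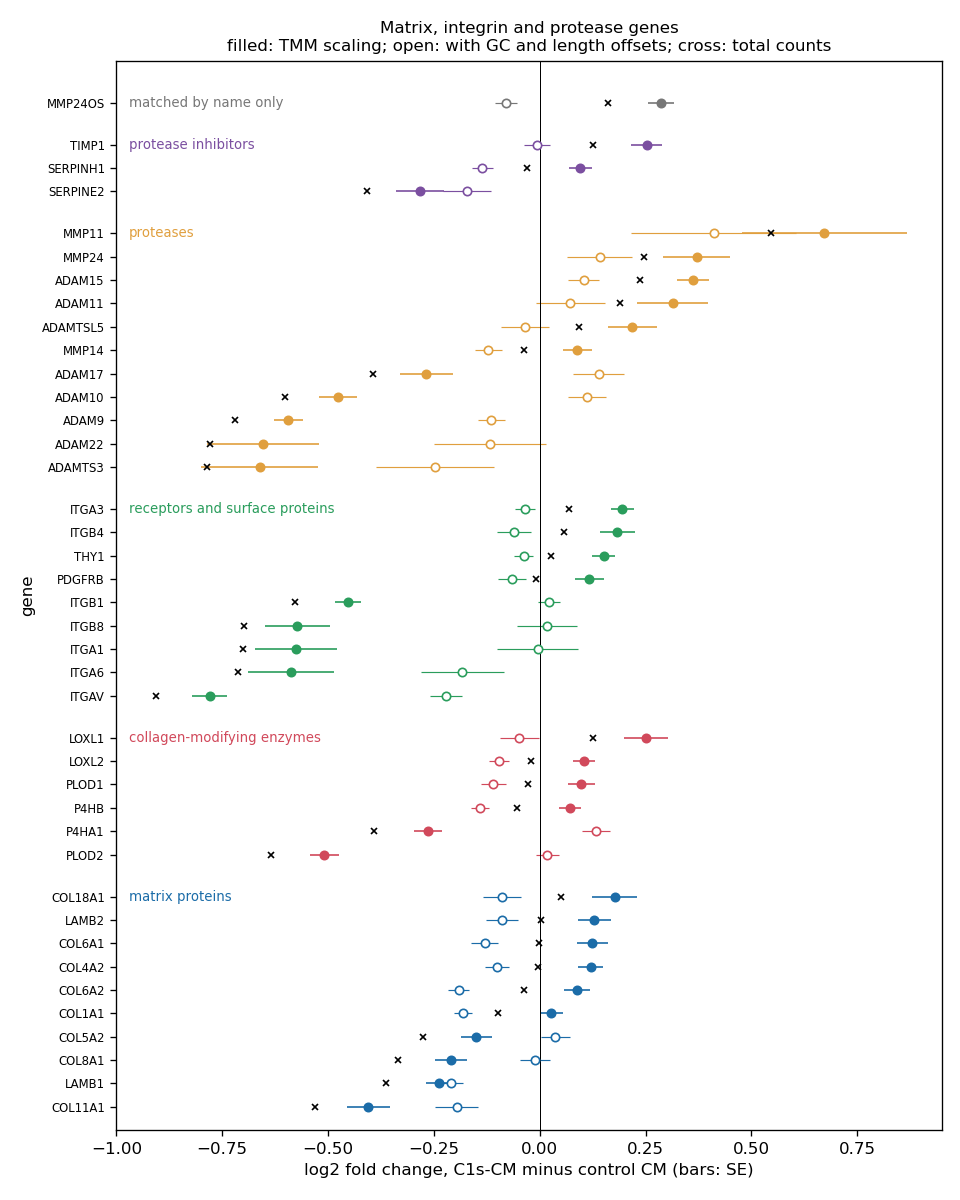
Log2 fold change (x axis, C1s-CM minus control CM) of each member (y axis), by role. Filled points are TMM-scaled values and open points values with GC and length offsets, both with SE bars, and crosses are values with total counts as the only scaling. The integrin genes from ITGB1 to ITGAV lie between -0.45 and -0.78 with TMM scaling, and with offsets they lie between 0.02 and -0.22.

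Direction went with the base composition of the transcripts. Of the 23 members whose representative transcript had a GC content of at least 50%, 22 were called higher and 0 lower, and of the 17 below 50%, 0 were higher and 17 lower. Over all genes, 97.1% of those at or above 50% GC and 5.88% of those below it were called higher. Fold change and GC content had a Pearson's r of 0.92 and a Spearman's rho of 0.84 over the 40 members, a description across genes that share the same 6 libraries. Each value below is therefore given a second time with offsets, from a fit that removes each library's trend with transcript GC content and length. With offsets 2 of 40 members were called higher (5.0%, against 14.4% of all genes) and 15 lower (37.5%, against 11.2%), and 26 changed sign. The groups then did not overlap for 24 of 40 members and for 39.0% of all genes. A true difference between the treatments that ran along GC content would be taken out by the offsets as well.

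**Figure D2:**
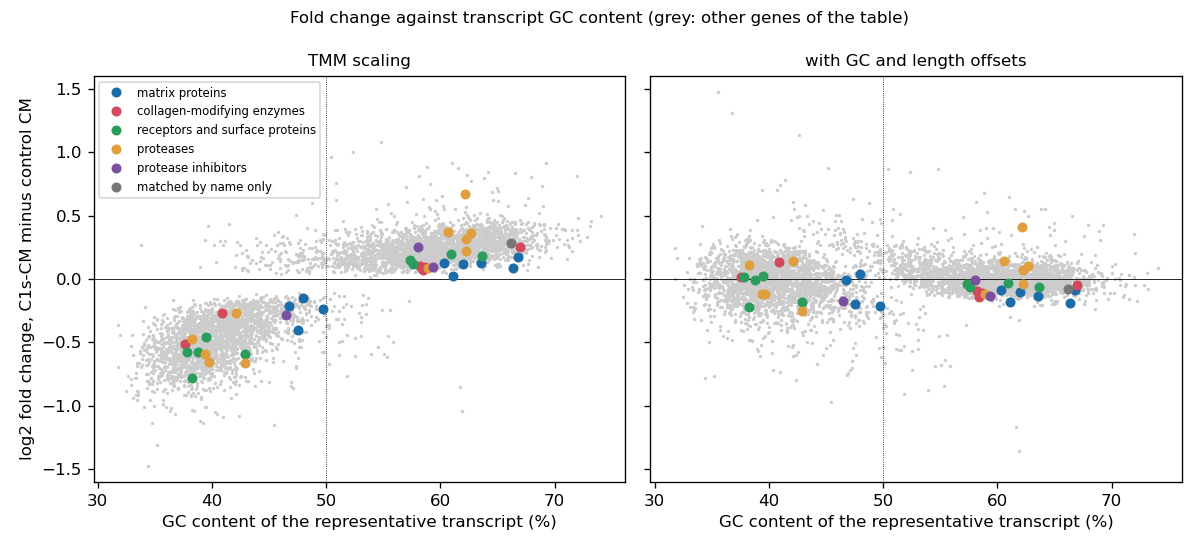
Log2 fold change (y axis) against transcript GC content in percent (x axis), with TMM scaling on the left and with offsets on the right. Coloured points are the 40 members by role, and grey points the other genes of the table with a value within the axis. On the left, all 17 members below 50% GC lie below 0, and on the right Spearman's rho of the members with GC content is -0.043.

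Scaling mattered too. With total counts as the only scaling the median of log2 fold changes moved by -0.13, 8 members were called higher and 19 lower (26.1% and 49.2% of all genes, 75.3% together), and 10 members that had a positive value changed sign. DESeq2 called 96.4% of all genes, and edgeR with the replicate number as a block 98.8%, 50.3% higher. All 17 falls passed under TMM, DESeq2 and total counts, and so did 8 rises: MMP11, MMP24, MMP24OS, ADAM15, ADAM11, LOXL1, TIMP1 and ITGA3. Only ITGAV, ADAM9, LAMB1 and COL11A1 were called in 1 direction, lower, in all 15 settings tried. Of these settings 12 had no offsets, and all 17 falls were called in each of them. How many of all genes passed every setting, or all of TMM, DESeq2 and total counts, was not counted. These numbers of members thus have no share to be read against.

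Of the 10 collagen and laminin genes 5 were called higher and 4 lower with TMM scaling (median 0.06, log2), where 50.9% and 48.5% of all genes were. With total counts as the only scaling 0 were higher and 5 lower (median -0.068), and with offsets 0 were higher and 6 lower (median -0.12, against -0.0023 over all genes, of which 11.2% were called lower). COL1A1, the main chain of type I collagen, was the most abundant of them per transcript length (556 CPM per kb in control CM) and held 27.5% to 28.2% of the members' counts in every library. Its level was 3898, 3787 and 3754 CPM in C1s-CM and 3779, 3699 and 3745 CPM in control CM. These values overlapped, and the log2 difference of 0.027 ± 0.03 (SE) missed the threshold (edgeR adjusted p = 0.31). With total counts as the only scaling COL1A1 was called lower (-0.098, adjusted p = 0.000603), and with offsets likewise (-0.18 ± 0.02, adjusted p = 5.44e-07). The authors' deposited log2 fold change of COL1A1 was 0.064, higher in C1s-CM (their DESeq2 adjusted p = 0.0154).

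The fibrillar chain COL11A1, a minor component that starts and limits the width of fibrils, fell from 77.8, 78.6 and 74.9 CPM to 56.1, 61.3 and 57.1 CPM. All 3 C1s-CM libraries were below every control library. The log2 fold change was -0.41 ± 0.05 (adjusted p = 1.32e-07), and with offsets -0.20 ± 0.05 (adjusted p = 0.0047). COL5A2, a chain of the type V collagen found inside type I fibrils, was at 209, 224 and 212 CPM against 231, 233 and 251 CPM, a log2 fold change of -0.15 ± 0.04 that turned to 0.037 and missed the threshold with offsets. COL8A1, a short-chain network collagen, fell by 0.21 ± 0.04 on the log2 scale, from 205, 223 and 228 CPM to 186, 184 and 198 CPM. With offsets it was -0.011 and missed the threshold. COL11A1 was thus the only 1 of the 3 collagens below 50% GC (47.5%, 47.9% and 46.8%) with a call after offsets.

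Apart from COL1A1, the 4 collagens with transcripts of at least 50% GC were called higher by small amounts with TMM scaling, and none of the 4 was called higher with total counts or with offsets. COL4A2, a basement membrane chain, was at 269, 268 and 279 CPM in C1s-CM and at 249, 248 and 253 CPM in control CM, a log2 fold change of 0.12 ± 0.03 (adjusted p = 0.000581). COL6A1 and COL6A2, neighbours on chromosome 21 that encode chains of the microfibrillar type VI collagen, were 0.12 ± 0.04 and 0.088 ± 0.030 higher. COL6A1 was at 201, 187 and 185 against 173, 173 and 181 CPM, and COL6A2 at 342, 320 and 324 against 307, 310 and 312 CPM. All 3 were called lower with offsets, COL4A2 by -0.10, COL6A1 by -0.13 and COL6A2 by -0.19 (adjusted p = 3.03e-06). Their values with total counts as the only scaling were -0.0053, -0.0014 and -0.037, all short of the threshold. COL18A1, whose C-terminal part is released as endostatin, had 112, 94.4 and 93.7 CPM against 86.5, 88.1 and 90.6 CPM. Its log2 fold change of 0.18 ± 0.05 rested on C1s-CM replicate 1. Without that library it was 0.089 and missed the threshold (adjusted p = 0.0695), and so did COL6A2 (0.058, adjusted p = 0.0618), which left 3 matrix genes called higher.

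The laminin beta chains moved apart. LAMB1, the beta chain of most embryonic and vascular laminins, fell from 249, 247 and 260 CPM to 218, 211 and 212 CPM, and its groups did not overlap. The log2 fold change of -0.24 ± 0.03 (adjusted p = 2.89e-07) kept its size with offsets, at -0.21 ± 0.03 (adjusted p = 5.2e-06). LAMB2, the beta chain of synaptic and kidney laminins, was at 114, 120 and 117 CPM against 109, 106 and 106 CPM, 0.13 ± 0.04 higher with TMM scaling, 0.0027 with total counts and -0.089 with offsets, the last 2 short of the threshold. Their proteins are related, with 50.8% identical residues over the aligned positions, but their transcripts differ in base composition (49.7% GC for LAMB1 and 60.3% for LAMB2). A stretch of 20 codons in exon 5 of each gene shows this. Both encode the same 20 residues there and differ at 14 bases, 13 of them at the last position of a codon. In the lines below, from GENCODE transcripts on GRCh38, capitals mark the bases that differ between the 2 genes.
LAMB1, chr7:107994890-107994949, minus strand: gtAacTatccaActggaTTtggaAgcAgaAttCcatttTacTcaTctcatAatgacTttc
LAMB2, chr3:49132119-49132178, minus strand: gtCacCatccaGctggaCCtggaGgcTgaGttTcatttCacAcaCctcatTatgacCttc

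Of these 60 bases 21 are G or C in LAMB1 and 30 in LAMB2. Within each library the ratio of LAMB1 to LAMB2 counts, which no library scaling can alter, was 1.92, 1.76 and 1.82 in C1s-CM and 2.28, 2.34 and 2.46 in control CM. The groups did not overlap.

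Among the 6 collagen-modifying enzymes 4 rose and 2 fell with TMM scaling (median 0.09, log2, and -0.072 with offsets). Over all genes 50.9% were called higher and 48.5% lower. The 2 that fell, PLOD2 and P4HA1, each had a partner or relative that rose. PLOD2 encodes the lysyl hydroxylase that acts on the telopeptides of fibrillar collagen. Its level was 318, 288 and 306 CPM in C1s-CM and 413, 446 and 438 CPM in control CM, and its log2 fold change -0.51 ± 0.03 (adjusted p = 9.76e-12). PLOD1, which hydroxylates lysines of the triple helix, was at 190, 199 and 193 CPM against 185, 178 and 181 CPM, 0.098 ± 0.033 higher (adjusted p = 0.0064). The PLOD2 to PLOD1 ratio within a library was 1.67, 1.45 and 1.58 in C1s-CM and 2.23, 2.51 and 2.42 in control CM, without overlap. With offsets PLOD2 was at 0.018 (adjusted p = 0.688) and PLOD1 was called lower, at -0.11 (adjusted p = 0.00906). With total counts as the only scaling PLOD1 was at -0.027.

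Both lysyl hydroxylases have 60.6% identical residues over the aligned positions, and their transcripts hold 37.6% (PLOD2) and 58.6% (PLOD1) G and C. The 20 codons of exon 12 below encode 19 identical residues and differ at 14 bases, 12 of them at last positions of codons. They are shown because the pair differs in direction and in composition while the encoded stretch is nearly the same. Capitals again mark differing bases.
PLOD2, chr3:146081767-146081826, minus strand: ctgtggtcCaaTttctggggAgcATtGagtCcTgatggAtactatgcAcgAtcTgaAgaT
PLOD1, chr1:11964212-11964271, plus strand: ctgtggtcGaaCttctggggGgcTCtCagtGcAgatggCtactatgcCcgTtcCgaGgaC

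Prolyl 4-hydroxylase, which hydroxylates proline in collagen, is a tetramer of catalytic alpha and structural beta subunits. P4HA1, a catalytic subunit, fell from 232, 226 and 234 CPM to 192, 199 and 185 CPM, a log2 fold change of -0.26 ± 0.03 (adjusted p = 1.52e-07). P4HB, the beta subunit and also the abundant protein disulfide isomerase, was the highest member per transcript length (974 CPM per kb in control CM) and was at 2642, 2679 and 2672 CPM against 2584, 2480 and 2542 CPM. Its log2 fold change was 0.072 ± 0.026 (adjusted p = 0.0122), which turned to -0.054 with total counts as the only scaling (called lower, adjusted p = 0.039). Without control CM replicate 2 P4HB missed the threshold (0.061, adjusted p = 0.0615). The P4HA1 to P4HB ratio was 0.0727, 0.0745 and 0.0690 in C1s-CM and 0.0896, 0.0912 and 0.0922 in control CM. With offsets both calls turned round, to 0.13 ± 0.03 for P4HA1 (adjusted p = 0.00336) and -0.14 ± 0.02 for P4HB (adjusted p = 2.83e-05). P4HA1 was 1 of the 2 members called higher with offsets, and with the longest transcript it missed the threshold (adjusted p = 0.0613).

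LOXL1 and LOXL2 encode copper-dependent amine oxidases that crosslink elastin and collagen. LOXL1 was at 134, 115 and 121 CPM in C1s-CM and at 97.4, 102 and 111 CPM in control CM, 0.25 ± 0.05 higher (adjusted p = 9.26e-05). LOXL2 was at 595, 585 and 590 CPM against 556, 541 and 551 CPM, 0.10 ± 0.03 higher (adjusted p = 0.000734). With offsets LOXL1 was at -0.048 and missed the threshold, while LOXL2 was called lower (-0.096, adjusted p = 0.00296). LOXL2 was at -0.022 with total counts as the only scaling.

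The largest fall of any member was that of an integrin subunit. Of 7 subunits with a row 5 fell and 2 rose. Their median was -0.57 (log2), against 0.08 over all genes, and with offsets -0.035 against -0.0023. The 5 that fell have transcripts below 50% GC, where 5.88% of all genes were called higher. ITGAV encodes the alpha-v subunit that binds RGD motifs in vitronectin, fibronectin and latent TGF-beta. Its level was 84.0, 82.7 and 81.0 CPM in C1s-CM and 134, 145 and 147 CPM in control CM. No C1s-CM library came near a control library, and the level fell by 41.8%. The log2 fold change was -0.78 ± 0.04 (adjusted p = 2.42e-13) and remained past the threshold with offsets, at -0.22 ± 0.04 (adjusted p = 0.000102). Over all 15 settings it ran from -0.91 to -0.22.

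ITGB1, the beta subunit shared by most collagen, laminin and fibronectin receptors, fell from 477, 507 and 479 CPM to 364, 359 and 346 CPM (-0.45 ± 0.03, adjusted p = 7.45e-12). ITGB8, which pairs with alpha-v to activate latent TGF-beta, fell from 36.8, 42.0 and 43.0 CPM to 30.3, 25.2 and 26.6 CPM (-0.57 ± 0.08, adjusted p = 4.06e-07). Of the alpha partners of ITGB1, the collagen receptor subunit ITGA1 fell from 20.3, 18.0 and 18.6 CPM to 13, 13.5 and 11.7 CPM (-0.58 ± 0.10). The laminin receptor subunit ITGA6 fell from 15.5, 16.5 and 15.7 CPM to 10.98, 10.9 and 9.84 CPM (-0.59 ± 0.10). In each of the 4 genes the groups were apart, and in none did the call last with offsets. The values were then 0.021 for ITGB1, 0.017 for ITGB8, -0.0054 for ITGA1 and -0.18 for ITGA6, with adjusted p of 0.602, 0.894, 0.977 and 0.185.

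The 2 integrin genes that rose encode partners of subunits that fell. ITGA3, a laminin receptor subunit that joins ITGB1, was at 610, 597 and 617 CPM in C1s-CM and at 538, 528 and 527 CPM in control CM (0.20 ± 0.03, adjusted p = 5.01e-07). ITGB4, the hemidesmosome subunit that joins ITGA6, was at 96.6, 94.6 and 97.8 CPM against 83.5, 86.2 and 84.7 CPM (0.18 ± 0.04, adjusted p = 0.000282). ITGB1 counts per ITGA3 count were 0.596, 0.602 and 0.561 in C1s-CM and 0.887, 0.962 and 0.909 in control CM. ITGB4 lost its call with total counts as the only scaling (0.058, adjusted p = 0.219), and with offsets ITGA3 (-0.035) and ITGB4 (-0.061) missed the threshold. The transcripts of both have over 60% G and C (60.9% and 63.7%), while the 5 integrin transcripts that fell have 37.8% to 42.9%.

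THY1, a GPI-anchored surface glycoprotein of neurons and mesenchymal cells that binds integrins, was at 1080, 1079 and 1093 CPM against 999, 982 and 948 CPM. The rise of 0.15 ± 0.03 on the log2 scale (adjusted p = 1.73e-05) shrank to 0.026 with total counts and turned to -0.038 with offsets, both short of the threshold, and with the longest transcript THY1 was called lower (-0.063, adjusted p = 0.0469). PDGFRB, the receptor for PDGF-BB on pericytes and fibroblasts, was at 162, 170 and 164 CPM against 153, 151 and 154 CPM. Its rise of 0.12 ± 0.03 (adjusted p = 0.00257) was at -0.0090 with total counts and -0.066 with offsets, neither past the threshold, and with the longest transcript it was called lower (-0.090, adjusted p = 0.0469).

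**Figure D3:**
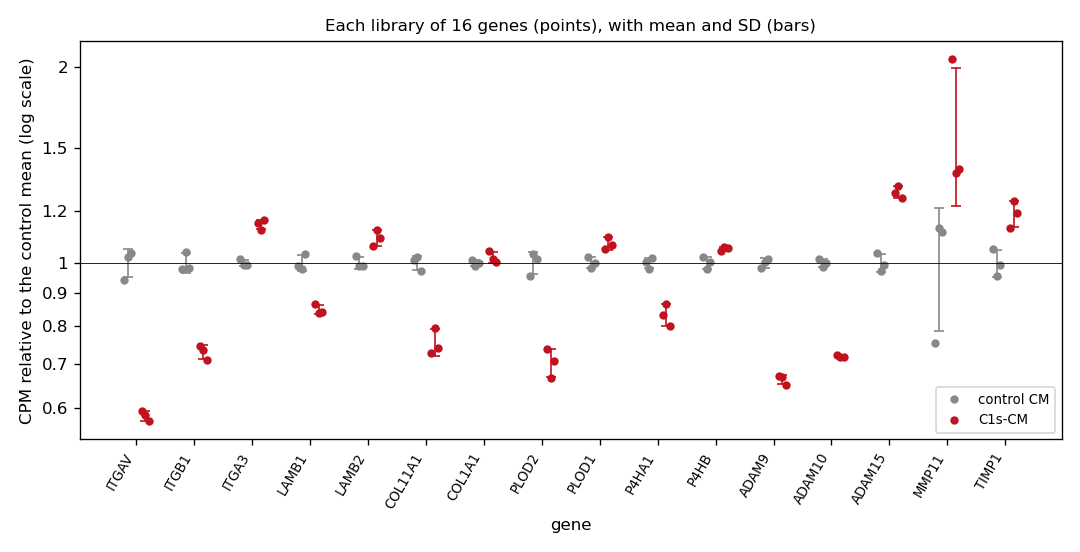
CPM of 16 members in each library, divided by the gene's control mean (y axis, log scale), with mean and SD of 3 libraries per group. The C1s-CM libraries (red) of ITGAV, ADAM9 and ADAM10 lie far below the control libraries (grey), those of COL1A1 overlap with them, and MMP11 has the widest spread.

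Of 11 proteases and protease-like proteins 6 rose and 5 fell, where 50.9% and 48.5% of all genes did. With TMM scaling 3 of 3 MMP genes rose, 2 of 6 ADAM genes rose and 4 fell. The 3 MMP genes and the 2 ADAM genes that rose have transcripts of at least 50% GC, where 97.1% of all genes were called higher. The 4 ADAM genes that fell lie below 50%, where 5.88% were. With offsets 1 ADAM gene was called higher, 1 ADAM and 1 MMP gene lower (14.4% and 11.2% of all genes). ADAM9, a membrane sheddase, fell from 194, 198 and 200 CPM to 132, 132 and 128 CPM. The log2 fold change was -0.59 ± 0.03 (adjusted p = 5.14e-13), and -0.11 ± 0.03 with offsets (adjusted p = 0.00856), so that it was called lower in every setting. ADAM10, the alpha-secretase that cleaves Notch and the amyloid precursor protein, fell from 91.0, 88.2 and 89.5 CPM to 64.7, 64.2 and 64.3 CPM (-0.48 ± 0.04, adjusted p = 1.9e-09). ADAM17, which releases TNF from the cell surface, fell from 41.5, 44.0 and 46.0 CPM to 36.2, 37.9 and 35.2 CPM (-0.27 ± 0.06, adjusted p = 0.000368). Both turned with offsets, to 0.11 for ADAM10 and 0.14 for ADAM17, and missed the threshold. With the longest transcript per gene ADAM17 was called higher (0.27).

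ADAM15, a sheddase with an RGD motif that binds integrins, rose from 108, 101 and 103 CPM to 133, 137 and 131 CPM. Its log2 fold change of 0.36 ± 0.04 (adjusted p = 1.26e-08) was 0.10 ± 0.04 with offsets (adjusted p = 0.0409), which made it the other member called higher there. With the longest transcript it missed the threshold (adjusted p = 0.0569). Per count of ADAM15 there were 0.486, 0.470 and 0.491 counts of ADAM10 in C1s-CM and 0.845, 0.872 and 0.866 in control CM, the largest shift of 9 ratios compared (-0.84 on the log2 scale). From the 2 log2 fold changes with offsets the same shift was 0.0078. The transcripts hold 62.7% (ADAM15) and 38.3% (ADAM10) G and C.

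At lower levels, ADAM22, a catalytically inactive member that binds LGI1 at synapses, fell from 8.57, 9.27 and 8.77 CPM to 5.93, 4.98 and 6.02 CPM (-0.65 ± 0.13, adjusted p = 8.38e-05). ADAMTS3, a procollagen N-proteinase, fell from 14.3, 14.5 and 10.9 CPM to 7.10, 7.57 and 10.4 CPM (-0.66 ± 0.14, adjusted p = 0.000109). ADAM11, another inactive member, rose from 17.9, 17.8 and 17.7 CPM to 21.0, 22.2 and 23.1 CPM (0.31 ± 0.08, adjusted p = 0.00114). ADAMTSL5, which has the ADAMTS accessory domains without the protease, was at 63.5, 68.6 and 63.1 CPM against 61.1, 54.0 and 53.0 CPM (0.22 ± 0.06), and lost its call with total counts (0.093). None of the 4 was called with offsets, where their values were -0.12, -0.25, 0.072 and -0.036.

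MMP11, a secreted metalloproteinase of stromal cells, had the largest rise and the fewest counts of the members that rose. It was at 6.81, 4.56 and 4.63 CPM in C1s-CM and at 2.50, 3.75 and 3.70 CPM in control CM, from 93, 65 and 63 counts against 33, 53 and 54. The highest value was C1s-CM replicate 1, and the log2 fold change was 0.67 ± 0.20 (adjusted p = 0.00235). MMP24, a membrane-type MMP, rose from 26.5, 24.8 and 23.8 CPM to 35.8, 29.6 and 31.7 CPM (0.37 ± 0.08, adjusted p = 0.000144). With offsets MMP11 (0.41, adjusted p = 0.128) and MMP24 (0.14, adjusted p = 0.187) missed the threshold.

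The gene MMP24OS (chr20:35201745-35278131, minus strand) spans all of MMP24 (chr20:35226654-35277000, plus strand) on the other strand. It rose by 0.29 ± 0.03 on the log2 scale, from 280, 297 and 283 CPM to 360, 347 and 342 CPM, and was called lower with offsets (-0.081, adjusted p = 0.0249). That call was lost with the replicate block (adjusted p = 0.0562), and with the longest transcript MMP24OS was called higher (0.66, adjusted p = 1.33e-14), so its direction with offsets rested on the transcript chosen. The use of strand in counting is not given in the sources used here, so reads of the 2 genes cannot be told apart where they overlap. MMP14, the membrane-type MMP that activates MMP2 and cuts fibrillar collagen, was at 172, 166 and 167 CPM against 159, 160 and 156 CPM (0.089 ± 0.033, adjusted p = 0.0139). Its call was lost in DESeq2 (0.074, adjusted p = 0.0869) and with total counts (-0.037), and with offsets it was called lower (-0.12, adjusted p = 0.00575).

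Of 3 inhibitors and serpin family members 2 rose and 1 fell, where 50.9% and 48.5% of all genes did. TIMP1, a secreted inhibitor of many MMPs and of ADAM10, rose from 211, 192 and 200 CPM to 228, 250 and 240 CPM (0.25 ± 0.04, adjusted p = 1.62e-06), and was at -0.0067 with offsets. The ratio of MMP14 to TIMP1 was 0.756, 0.665 and 0.697 in C1s-CM and 0.755, 0.832 and 0.781 in control CM. These values overlapped, in contrast to the other 8 ratios. The ratio compares RNA counts only, and whether TIMP1 inhibits MMP14 in these cells was not tested.

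SERPINE2, protease nexin 1, an inhibitor of thrombin and plasminogen activators made by glia, fell from 59.7, 60.9 and 56.9 CPM to 51.2, 49.7 and 45.0 CPM (-0.28 ± 0.06, adjusted p = 8.63e-05). The fall stood with offsets (-0.17, adjusted p = 0.0258), but with the longest transcript SERPINE2 was called higher (0.17). SERPINH1, which despite its name is a collagen chaperone and no inhibitor, was at 362, 359 and 364 CPM against 340, 335 and 340 CPM (0.095 ± 0.027, adjusted p = 0.00206). It was at -0.030 with total counts and was called lower with offsets (-0.14, adjusted p = 0.000204).

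**Figure D4:**
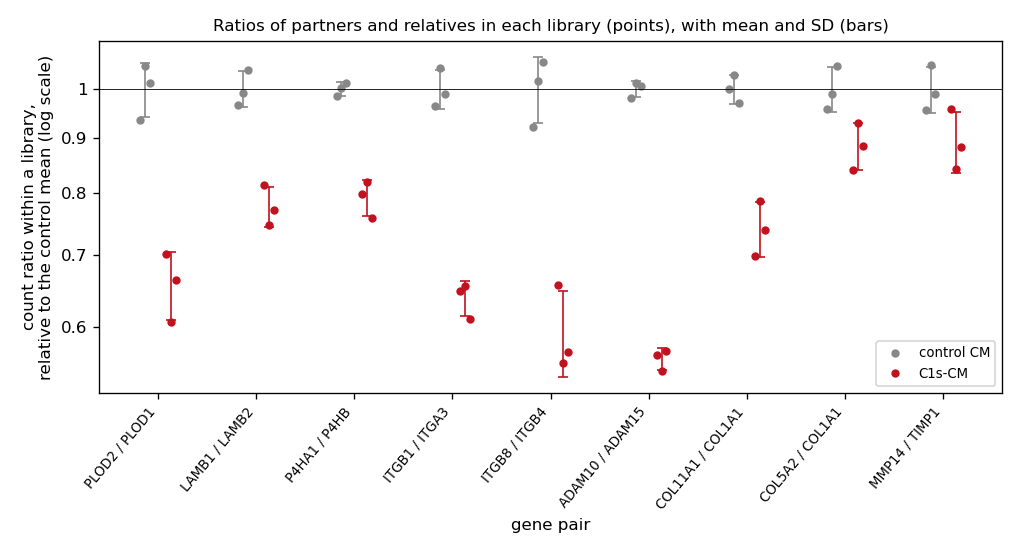
Ratio of the counts of 2 genes within a library, divided by the mean ratio in control CM (y axis, log scale), for 9 pairs (x axis), with mean and SD of 3 libraries per group. Red points (C1s-CM) and grey points (control CM) are apart for 8 pairs and overlap for MMP14 to TIMP1.

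Further ratios were as follows. ITGB8 counts per ITGB4 count were 0.314, 0.266 and 0.272 in C1s-CM and 0.441, 0.487 and 0.508 in control CM. Per count of COL1A1, there were 0.0144, 0.0162 and 0.0152 counts of COL11A1 against 0.0206, 0.0213 and 0.0200, and 0.0535, 0.0592 and 0.0564 counts of COL5A2 against 0.0611, 0.0631 and 0.0670. From the log2 fold changes with offsets the shifts were 0.078 for ITGB8 to ITGB4 (-0.75 without), -0.016 for COL11A1 to COL1A1 (-0.43) and 0.22 for COL5A2 to COL1A1 (-0.18), the last of opposite sign. They were 0.13 for PLOD2 to PLOD1 (-0.61), 0.27 for P4HA1 to P4HB (-0.34), 0.056 for ITGB1 to ITGA3 (-0.65), -0.12 for LAMB1 to LAMB2 (-0.36) and -0.11 for MMP14 to TIMP1 (-0.16). The pairs were chosen with the values of their genes known, so the ratios are a description only, and 97.2% of single genes did not overlap either. In the 8 pairs without overlap the gene with the lower transcript GC content is the one that was lower in C1s-CM.

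Promoters were looked at for ITGAV, LAMB1 and COL11A1, 3 of the 4 genes called lower in every setting, with RefSeq sequences on GRCh38.p14 that run from 250 bases before to 50 after the gene's start. Of the 40 members 30 had an entry, and ADAM9, the other of these 4 genes, was not among them. The motifs searched on both strands were the GC box GGGCGG (in 45.0% of all promoters of the set), the CCAAT box CCAAT (34.6%), the TATA box TATAAA (11.5%) and the AP-1 motif TGANTCA (7.71%); matches of different motifs were counted separately, whether or not they overlapped. A GC box was found in 25 of the 30 members, a CCAAT box in 9, TATAAA in 4 and TGANTCA in 0. In the 3 promoters below capitals mark matches. That of LAMB1 holds 4 GC boxes, that of COL11A1 3 GC boxes and 1 CCAAT box, and that of ITGAV none of the 4 motifs.
ITGAV promoter, chr2:186589806-186590105, plus strand: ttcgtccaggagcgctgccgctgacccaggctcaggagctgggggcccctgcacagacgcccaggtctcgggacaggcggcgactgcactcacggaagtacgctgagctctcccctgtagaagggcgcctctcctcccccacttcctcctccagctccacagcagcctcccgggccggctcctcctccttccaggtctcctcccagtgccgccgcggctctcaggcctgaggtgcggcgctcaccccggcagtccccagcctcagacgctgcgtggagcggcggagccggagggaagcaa
LAMB1 promoter, chr7:108003112-108003411, minus strand: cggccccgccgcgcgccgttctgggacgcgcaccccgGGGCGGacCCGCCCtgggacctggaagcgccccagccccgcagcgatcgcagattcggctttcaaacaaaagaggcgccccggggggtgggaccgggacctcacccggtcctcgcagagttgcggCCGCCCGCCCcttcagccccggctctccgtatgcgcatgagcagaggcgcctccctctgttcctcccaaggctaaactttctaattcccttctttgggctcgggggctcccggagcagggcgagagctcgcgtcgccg
COL11A1 promoter, chr1:103108473-103108772, minus strand: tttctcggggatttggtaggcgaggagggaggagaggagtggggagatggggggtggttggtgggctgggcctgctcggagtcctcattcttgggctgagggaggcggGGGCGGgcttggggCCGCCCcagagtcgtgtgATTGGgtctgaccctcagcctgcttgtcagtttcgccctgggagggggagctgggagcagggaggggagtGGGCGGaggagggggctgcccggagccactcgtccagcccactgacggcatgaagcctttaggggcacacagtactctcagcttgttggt

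All 3 promoters are rich in G and C (70.7% for ITGAV, 71.0% for LAMB1 and 66.0% for COL11A1), whereas the transcripts of these genes are not (38.3%, 49.7% and 47.5%). The same held across members. Promoters of the 16 members called higher had a median GC content of 70.0% and those of the 14 called lower 71.3%, while the transcripts of the same genes had medians of 61.3% and 40.3%.

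Further genes of the same pathways were counted from lists, without a test between the lists. For the counts with TMM scaling, the shares over all genes were 50.9% higher and 48.5% lower. Of 40 other matrix proteins listed 10 had a row, 6 called higher and 4 lower. FN1, which encodes fibronectin, a ligand of ITGAV and ITGB1 integrins, was at 17304, 17850 and 17509 CPM against 13557, 14357 and 13241 CPM. Its groups did not overlap, with a rise of 0.36 ± 0.03 (adjusted p = 4.31e-10) that was larger with offsets, at 0.47 (adjusted p = 5.22e-12). EFEMP2, a fibulin of elastic fibres, was 0.30 higher, and 0.021 with offsets. The proteoglycan VCAN (-0.40) and the secreted glycoprotein FSTL1 (-0.22) fell. With offsets VCAN was at 0.030 and not called, and FSTL1 was called higher (0.14). CCN2, a matricellular protein chosen after its values were seen, fell by 0.22 and by 0.27 with offsets (adjusted p = 1.6e-08).

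Of 24 other collagen processing genes 13 had a row, 5 higher and 8 lower. COLGALT1, a collagen galactosyltransferase (0.14), and P3H3, of the prolyl 3-hydroxylase family (0.23), rose, and the lysyl oxidase gene LOX (-0.48) and the COPII coat gene SEC23A (-0.41) fell. None of the 4 was called with offsets. Of 32 genes of focal adhesions and other matrix receptors 15 had a row, 12 higher and 3 lower. The 12 were those with transcripts of at least 50% GC, where 97.1% of all genes were called higher. The filamin FLNA (0.35) and talin TLN1 (0.30), which tie integrins to actin, rose and were still called higher with offsets (0.13 and 0.17), and LIMS1 (-0.44) and the kindlin FERMT2 (-0.42) fell, LIMS1 also with offsets (-0.32) and FERMT2 not (-0.02). Of 24 other extracellular proteases and inhibitors 4 had a row, 3 higher and 1 lower. The cysteine protease inhibitor CST3 rose by 0.28 and, with offsets, by 0.50 (adjusted p = 3.23e-11). That offset was taken from a transcript of 3286 bases and 45.9% GC, so the larger value rests on the transcript chosen. The lysosomal protease CTSD rose by 0.20 (-0.086 and called lower with offsets), and the neutral endopeptidase MME fell by 0.58 (-0.046 and not called with offsets).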

How the data were processed

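Members and gene lists were chosen with earlier results of these data known. Per the submitters' processing notes the tools were FastQC 0.11.9, Trim Galore 0.6.7, HISAT2 2.2.1 and DESeq2 1.40.2, with GRCh38 as the build. The counter's name, annotation and strand setting are not stated in the sources used here. The authors deposited raw counts per gene. Beside them stand, per the file headers, the authors' log2 fold change, p-value and adjusted p-value. The sign of that log2 fold change was that of the TMM-scaled values here for all 40 members. The 10 members that turned negative with total counts were thus positive in the authors' values. The deposited p-values, adjusted p-values and ranks point to an adjustment over about 12585 genes (a median estimate), of which 40.7% have a row. 2 further serpins are not reported here, nor counted among the members.

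The main test was the quasi-likelihood test of edgeR 4.0.16 (R 4.3.3). After filterByExpr, which dropped 1 gene, 5116 genes were tested (TMM scaling, group as the only term, two-sided, Benjamini-Hochberg adjustment over all of them, threshold 0.05). All members passed the filter, with at least 33 counts in every library. CPM are TMM-scaled counts of the table per 1e6, and an SE is the log2 fold change divided by the root of the test's F value. GC and length offsets came from a loess fit per library (span 0.3) of centred log2 CPM on the GC content and log2 length of a representative GENCODE 29 transcript (5112 genes tested, log2 prior count 2). Ratios of counts are given as a description. An exact permutation test of each pair gave p = 0.1, or 0.2 for MMP14 to TIMP1, and none passed after adjustment over 9 pairs. With 3 libraries per group this test cannot give a p below 0.1, so nothing is concluded from it. Alternatives were DESeq2 1.42.0, total counts, no filter, at least 50 counts in every library, a replicate block, the longest transcript and leaving out each library. The code was run on simulated counts with a pass mark only for the fit without offsets, so this was no check of the offsets. Named with full values were SPARC (no row), THY1, PDGFRB, the 3 rises and 3 falls with the smallest p per role, and members called with offsets. The other members with a row are also given. Of each list of other genes the 2 with the smallest p per direction are named. Coding windows are the single-exon stretches of 20 codons with most identical residues. Ratio pairs, coding windows, promoters and motifs were chosen after values were seen.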

Additional observations from a re-analysis of the deposited data

How the results depend on the processing

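The 17 falls and 22 rises among the members were counted again under 14 alternatives. No filter, at least 50 counts in every library (MMP11 was then not tested) and DESeq2 changed no direction, and DESeq2 ended the calls of MMP14 and COL6A2. Leaving out 1 library in turn gave 20 to 22 rises and 17 falls, with 3 to 5 matrix genes, 3 to 4 enzymes, 4 to 6 other matrix proteins, 4 to 5 other collagen processing genes and 2 to 3 other proteases called higher. The 3 matrix genes were those without C1s-CM replicate 1, and the 3 enzymes those without control CM replicate 2. The share of all genes called was not counted for the fits that left out a library. Libraries of the same replicate number were no more alike than others (correlations of deviations -0.13, -0.087 and -0.0031 for numbers 1, 2 and 3). With 3 libraries per group this cannot exclude shared handling by number, and the labels do not state a pairing. With the replicate block 22 members were higher and 17 lower, with 98.8% of all genes called and no member's call changed. The table sums are a part of each library, so depth limits were not set, and the genes below 10 CPM (MMP11, ADAM22) and ADAMTS3 had the widest errors. The cause of the changes below was not tested.

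With total counts as the only scaling 8 members were called higher, of them 0 matrix proteins, 1 enzyme, 1 receptor and 1 inhibitor, and 0 other collagen processing genes. Values that changed sign were COL6A1 -0.0014, COL4A2 -0.0053, PDGFRB -0.0090, LOXL2 -0.022, PLOD1 -0.027, SERPINH1 -0.030, MMP14 -0.037, COL6A2 -0.037, P4HB -0.054 and COL1A1 -0.098 (log2).

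With GC and length offsets 2 members were called higher and 15 lower (14.4% and 11.2% of all genes). For offsets of the longest transcript, and for offsets with the replicate block, the share of all genes called was not counted. The numbers of members in those settings thus have no share to be read against. By role there were 0 matrix proteins higher and 6 lower, 1 enzyme higher and 3 lower, 0 receptors higher and 1 lower, 1 protease higher and 2 lower, and 0 inhibitors higher and 2 lower. Of other genes, 2 matrix proteins were higher and 2 lower, 0 collagen processing genes higher and 2 lower, 4 focal adhesion genes higher and 2 lower, and 1 protease higher and 1 lower. With offsets of the longest transcript 3 members (MMP24OS, ADAM17 and SERPINE2) were higher and 15 lower, with 0 matrix proteins higher and 6 lower, 0 enzymes higher and 3 lower, 0 receptors higher and 3 lower, 1 protease higher and 2 lower, and 1 inhibitor higher and 1 lower. Of other genes, 3 matrix proteins were higher and 4 lower, 1 collagen processing gene higher and 3 lower, 6 focal adhesion genes higher and 3 lower, and 1 protease higher and 1 lower. With offsets and the replicate block together the counts were as with offsets, except that 1 member and 0 proteases were higher (ADAM15 missed the threshold, adjusted p = 0.0677), 14 members were lower (MMP24OS missed it, adjusted p = 0.0562) and 0 other proteases were lower.

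Values that changed sign with offsets were MMP24OS -0.081, LOXL1 -0.048, TIMP1 -0.0067, ADAMTSL5 -0.036, ITGA3 -0.035, ITGB4 -0.061, COL18A1 -0.088, THY1 -0.038, LAMB2 -0.089, COL6A1 -0.13, COL4A2 -0.10, PDGFRB -0.066, LOXL2 -0.096, PLOD1 -0.11, SERPINH1 -0.14, MMP14 -0.12, COL6A2 -0.19, P4HB -0.14, COL1A1 -0.18, COL5A2 0.037, P4HA1 0.13, ADAM17 0.14, ITGB1 0.021, ADAM10 0.11, PLOD2 0.018 and ITGB8 0.017. With the replicate block added the same members changed sign, with the same rounded values except MMP24OS -0.080, LOXL1 -0.047 and COL18A1 -0.091. With the longest transcript they were LOXL1 -0.051, TIMP1 -0.0059, ADAMTSL5 -0.049, ITGA3 -0.044, ITGB4 -0.076, COL18A1 -0.11, THY1 -0.063, LAMB2 -0.10, COL6A1 -0.14, COL4A2 -0.12, PDGFRB -0.090, LOXL2 -0.12, PLOD1 -0.14, SERPINH1 -0.12, MMP14 -0.13, COL6A2 -0.20, P4HB -0.17, COL1A1 -0.20, COL5A2 0.0052, P4HA1 0.081, ADAM17 0.27, SERPINE2 0.17, ADAM10 0.12, PLOD2 0.059 and ITGB8 0.014.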

Other observations

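Base composition of the coding and untranslated parts was compared after values were seen, as a description. The last codon positions of the 22 members called higher had a median GC content of 77.2% (54.8% to 88.7%), and those of the 17 called lower 39.7% (28.0% to 57.5%). The 3′ untranslated regions of the members called higher had 50.6% to 72.7% GC and those of the members called lower 27.8% to 37.4%, so that the ranges did not overlap. The median length of these regions was 853.5 bases for members called higher and 2162 bases for members called lower. COL1A1, the 1 member without a call, had 47.5% GC at last codon positions and 53.3% in its 3′ untranslated region.

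The members held 1.33%, 1.30% and 1.30% of all counts of the table in C1s-CM and 1.41%, 1.405% and 1.43% in control CM. The 3 genes COL1A1, P4HB and THY1 made up 55.2%, 55.3% and 55.3% of the members' counts in C1s-CM and 54.1%, 53.2% and 53.3% in control CM.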
